A study of Homo sapiens with 6 samples.

Results

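The genes described are those of the cytosolic ribosomal proteins, the protein part of the ribosome that translates cytoplasmic and most cellular mRNA. They were chosen by name among protein-coding genes (RPL or RPS, a number, and an optional A or X, with RPLP0, RPLP1, RPLP2 and RPSA added), with no use of measured values. The rule found 77 genes among the 60483 gene ids counted, 46 of the large subunit and 31 of the small subunit, and all 77 had enough reads to be tested. RNA came from T98G, an established human glioblastoma line, as poly(A) libraries, 2 of each of 3 groups. The growth protocol names another glioblastoma line beside T98G, but all 6 libraries are labelled T98G. The oeSRPK1 cells were transiently transfected, with Lipofectamine 2000, with full-length SRPK1 in pcDNA3.1, the shSRPK1 cells in the same way with an SRPK1 hairpin in pLKO.1, and the NT cells were left untreated. SRPK1 is a kinase that acts on the SR family of splicing factors, and the study set cells given more and cells given less of it against untreated cells. No library of cells transfected with an empty or control vector was used here, so the reagent, the vector and the SRPK1 sequence changed together against NT.

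A ribosome holds 1 copy of nearly every one of these proteins, and cells make them in matched amounts. Their mRNAs are among the most abundant in dividing cells and begin, as a class, with a C followed by a run of pyrimidines, the terminal oligopyrimidine (TOP) start. Through that start the kinase mTOR and the RNA-binding protein LARP1 adjust their translation and stability, so that the supply of ribosomes follows growth.

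Reads counted in genes were 22691215 and 3891549 in oeSRPK1, 13650909 and 10792385 in shSRPK1, and 9891606 and 13634038 in NT. The shSRPK1 libraries differed most from each other (chi-square per gene 43.9, against 7.80 between the oeSRPK1 libraries and 4.33 between the NT libraries). Levels are given as normalised CPM, a gene's share of the gene reads of its library after TMM scaling. SRPK1 itself had 190.0 and 167.7 CPM in oeSRPK1, 112.9 and 139.9 in shSRPK1, and 152.3 and 140.2 in NT. Against NT its log2 fold change in shSRPK1 was -0.06 without shSRPK1 1 and -0.37 without shSRPK1 2. SRPK1 passed against NT in neither transfected group (edgeR adjusted p = 0.175 for oeSRPK1, or 0.0231 when only the oeSRPK1 and NT libraries were fitted, and 0.360 for shSRPK1). It was higher in oeSRPK1 than in shSRPK1 (log2 difference 0.50, edgeR adjusted p = 0.0377), a call lost without NT 1, NT 2, oeSRPK1 1 or oeSRPK1 2 (adjusted p from 0.0939 to 0.308) and when only these groups were fitted (0.0920). The 8 glioblastoma and astroglial markers summed to 6296 and 5854 CPM in oeSRPK1, 5529 and 4618 in shSRPK1, and 4438 and 4907 in NT. Most of this was VIM (1738 to 2754 CPM) and CD44 (2525 to 3330), with SOX9 at 86.6 to 264, while S100B and SOX2 were at 0 in all libraries and GFAP had 1 read over the 6. The 9 skeletal muscle markers found summed to 241 and 2881 CPM in oeSRPK1, 1.36 and 13.7 in shSRPK1, and 0.678 and 1.2 in NT. In oeSRPK1 2 MYH7 alone had 1266 CPM. The part of these transcripts in the results for oeSRPK1 was not tested, and those results are given without each library as well.

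Shown first are the starts of the genes that fell most in shSRPK1 and of those nearest to or above 0 there, since the TOP start is the shared sequence feature of the class. Each line is 30 bases of RefSeq promoter sequence (GRCh38.p14), 15 before the annotated start and 15 from it on, 5′ to 3′ on the gene's strand. Capitals mark the longest run of C and T that touches the window. The first 6 genes fell most in shSRPK1.
RPLP0: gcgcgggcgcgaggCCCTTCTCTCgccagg
RPL9: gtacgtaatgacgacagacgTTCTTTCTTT
RPS3A: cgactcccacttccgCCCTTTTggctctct
RPS12: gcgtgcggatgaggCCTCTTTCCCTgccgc
RPSA: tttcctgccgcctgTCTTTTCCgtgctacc
RPL21: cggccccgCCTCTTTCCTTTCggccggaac
The next 5 had the log2 fold changes above or nearest to 0 in shSRPK1. RPS10 falls under the rule for named genes, and the other 4 were chosen after their values were seen.
RPS10: ccgcgcatgCTCCTTCCTTTCCagccccgg
RPL28: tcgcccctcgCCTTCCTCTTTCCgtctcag
RPS15: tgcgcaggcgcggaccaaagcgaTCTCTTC
RPS14: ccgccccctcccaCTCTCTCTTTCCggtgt
RPS9: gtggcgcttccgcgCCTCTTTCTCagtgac
The windows lie at chr12:120201097-120201126 (minus strand) for RPLP0, chr4:39458908-39458937 (minus) for RPL9, chr4:151099613-151099642 (plus) for RPS3A, chr6:132814554-132814583 (plus) for RPS12, chr3:39406705-39406734 (plus) for RPSA and chr13:27251543-27251572 (plus) for RPL21. Those of the second set lie at chr6:34426055-34426084 (minus) for RPS10, chr19:55385917-55385946 (plus) for RPL28, chr19:1438381-1438410 (plus) for RPS15, chr5:150449725-150449754 (minus) for RPS14 and chr19:54200843-54200872 (plus) for RPS9. Both sets held such runs: their lengths were 10, 10, 7, 11, 8 and 13 bases in the first set, and 13, 13, 8, 12 and 10 in the second.

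RefSeq gave a start for 62 of the 77 genes, and where it gave several the longest run was taken, here and in all genes. A run of at least 8 pyrimidines touched the window in 56 of the 62 (90.3%), against 23.7% of 15226 protein-coding genes and 17.1% of 70 mitochondrial ribosomal protein genes. The median run was 12 bases, against 5 bases in all protein-coding genes. The motif CTTTCC stood in the window of 30.6% of the 62 on the coding strand and 1.61% on the other strand, against 2.29% and 1.40% of all protein-coding genes. The motif CTCTTT, which can overlap it, stood in 25.8% and 1.61%, against 1.83% and 0.959%. Run length and log2 fold change had a Spearman rho of 0.17 for shSRPK1 against NT and 0.05 for oeSRPK1 against NT over the 62 genes, all read from the same libraries. A match describes the sequence and is not a measured start.

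The genes were spread over 21 chromosomes, with 12 on chromosome 19. Per kilobase of transcript the median gene averaged 607 CPM per kb over the 6 libraries. RPS18 (2340 CPM per kb) and RPS27 (1891 CPM per kb), both of the small subunit, were highest with the transcript lengths used. Each length was that of a single annotated transcript, which may not be the one expressed. RPL37 (7686 bases, 291 coding) and RPL37A (3647 bases, 276 coding) stood at 119.9 and 259.9 CPM per kb. Their means of 921.5 and 947.8 CPM were above that of RPS27 (678.8), so this order depends on the transcript chosen. The lowest were RPS10 (6.09 CPM per kb), which sits at the mRNA entry of the small subunit, RPL17 (14.8), at the rim of the exit tunnel, and RPL36A (35.5), near the exit site for tRNA. In GENCODE 29 a read-through gene covers 84.0% of the exonic bases of RPS10 (RPS10-NUDT3), 91.0% of those of RPL17 (RPL17-C18orf32) and 77.6% of those of RPL36A (RPL36A-HNRNPH2). Reads that could belong to either gene may not have been counted, which was not tested, so these 3 levels are uncertain, as is that of RPL26 (76.5 CPM per kb, 65.3% covered). Every one of the 77 also has annotated pseudogenes, from 1 to 133 (RPL21). The 1591 pseudogenes together had 1.08% and 1.34% as many reads as the 77 genes in oeSRPK1, 1.0% and 1.02% in shSRPK1, and 0.983% and 0.933% in NT.

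Ribosomal protein mRNA took a smaller share of reads in both transfected groups than in NT. The 77 genes took 3.61% and 3.98% of gene reads in oeSRPK1, 3.48% and 3.19% in shSRPK1, and 4.88% and 4.90% in NT, so that neither transfected group overlapped NT. Their summed level was 38375 ± 2257 CPM in oeSRPK1, 34370 ± 2107 in shSRPK1 and 46962 ± 232 in NT (SD, n = 2 each). That is 0.817 times NT in oeSRPK1 and 0.732 times NT in shSRPK1. No test was made on the sum, since an exact permutation test of 2 against 2 libraries cannot go below p = 0.33. In bulk RNA a lower share cannot be told apart from more RNA of other genes, nor fewer cells of a kind from less RNA per cell.

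The subunits had similar sums relative to NT. Large subunit genes summed to 23653 ± 1339 CPM in oeSRPK1, 21037 ± 1347 in shSRPK1 and 28683 ± 221 in NT (SD, n = 2 each), which is 0.825 times NT in oeSRPK1 and 0.733 times in shSRPK1. Small subunit genes summed to 14722 ± 918, 13333 ± 760 and 18279 ± 11.3 CPM in the same order, which is 0.805 and 0.729 times NT. The ratio of large to small subunit mRNA stayed between 1.56 (NT 1) and 1.61 (oeSRPK1 1) over the 6 libraries.

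**Figure D1:**
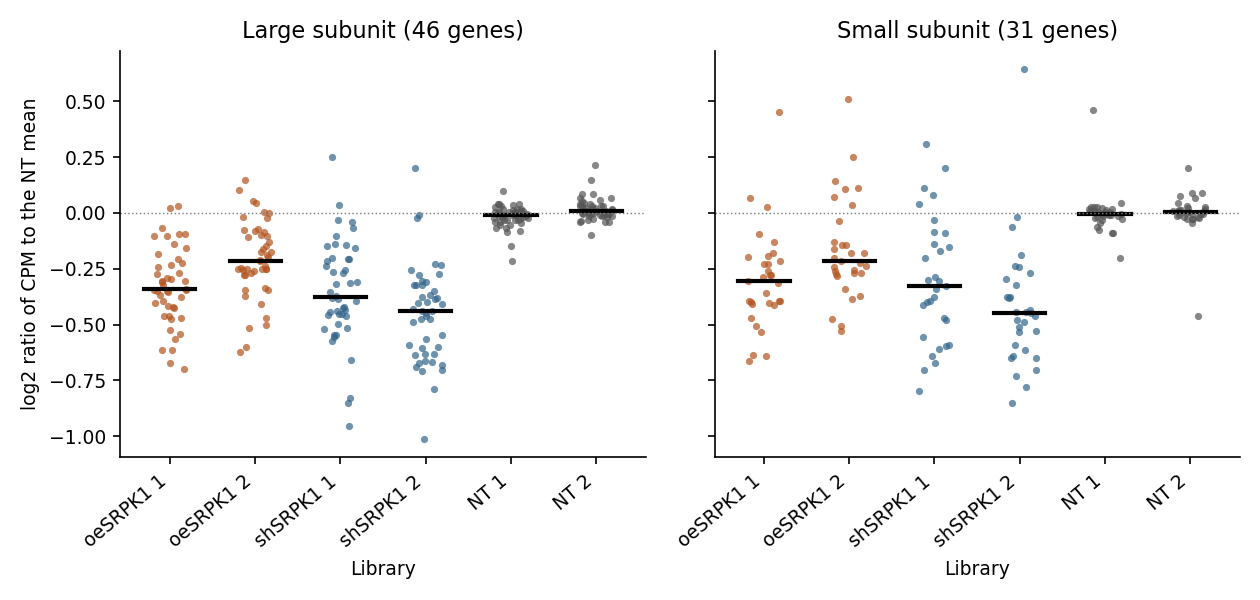
Log2 ratio of normalised CPM (0.5 CPM added) to the NT mean, for the 46 large and the 31 small subunit genes in each of the 6 libraries; each point is a gene and the bar is the median. The medians over all 77 genes lie at -0.32 and -0.21 in oeSRPK1, -0.35 and -0.44 in shSRPK1, and -0.01 and 0.01 in NT, and the subunits look alike.

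The replicates differed in a way that ran through the whole class. In oeSRPK1, 71 of 77 genes were higher in library 2 (median ratio 1.09), and in shSRPK1, 66 of 77 were lower in library 2 (0.922), while NT was split 44 to 33 (1.01). Single genes stood out: RPL36A differed 2.13-fold between the shSRPK1 libraries and RPS15 1.42-fold, and RPS9 differed 1.90-fold between the NT libraries. The series describes 2 biological replicates per condition and names no separate cultures, and the spread behind the p-values may therefore be technical in part.

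In shSRPK1 against NT, 24 of the 77 genes were lower and 0 higher at an edgeR adjusted p under 0.05. That is 31.2% of them, against 3.75% of the 14732 genes tested that were lower and 5.43% that were higher. The 24 comprised 13 of 46 large and 11 of 31 small subunit genes. The log2 fold change was below 0 for 74 of 77 (49.0% in all tested genes), with a median of -0.37 (a level 0.772 times NT; quartiles -0.54 and -0.24), against 0.01 over all tested genes. The large subunit had a median of -0.37 and the small subunit -0.38. In 65 genes (84.4%) both shSRPK1 libraries lay below both NT libraries, against 28.7% of all tested genes, and in 0 both lay above (28.8% in all tested genes). At an unadjusted p under 0.05 there were 50 of the 77 genes, against 4237 of all 14732 tested genes. DESeq2 called 38 lower and limma-voom 30 (3.91% and 3.94% of all tested genes), and neither called any higher. The edgeR count depended on single libraries: 0 were called lower without NT 1 (5 of 15930 genes in all) or without NT 2 (10 of 15188 in all), 1 without oeSRPK1 1 and 1 without oeSRPK1 2 (RPLP0 both times), 57 without shSRPK1 1 and 45 without shSRPK1 2 (1815 of 15174 and 2243 of 15837 genes in all). It was also 0 when only the shSRPK1 and NT libraries were fitted, where the 24 genes had adjusted p-values from 0.0539 to 0.126 and 40 of 14279 genes in all were lower. Without shSRPK1 2 RPS15 was also called higher (0.31). The median stayed between -0.44 and -0.35 in these fits. Without oeSRPK1 1 or oeSRPK1 2 a smaller share of all tested genes was called lower too.

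RPLP0, the base of the stalk that recruits the GTPase translation factors and a common reference gene in PCR, fell most (ENSG00000089157.14, chromosome 12, 120196686 to 120201235, minus strand). It had 851 and 910.4 CPM in oeSRPK1, 672 and 647 in shSRPK1, and 1340 and 1268 in NT. The 3 groups did not overlap, with shSRPK1 lowest. Its level in shSRPK1 was 0.506 times NT (95% interval 0.411 to 0.622; log2 fold change -0.98 ± 0.13 SE, edgeR adjusted p = 0.00796). This call was lost without NT 1 (adjusted p = 0.157) or NT 2 (0.0904) and when only shSRPK1 and NT were fitted. The acidic proteins that bind to it were less changed: RPLP1 had 487 and 404 CPM in shSRPK1, against 664 and 641 in NT, and RPLP2 570 and 525, against 612 and 659.5. Neither passed (edgeR log2 fold change -0.55 ± 0.15, adjusted p = 0.0542, and -0.22 ± 0.14, adjusted p = 0.340), although neither overlapped NT.

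Among the other large subunit genes RPL9, RPL21, RPL3, RPL10, RPL10A and RPL4 fell. RPL9 (ENSG00000163682.14, chromosome 4, 39452521 to 39458949, minus strand) had 347 and 357 CPM in shSRPK1, against 661 and 576 in NT, a level 0.569 times NT (95% interval 0.460 to 0.704, edgeR adjusted p = 0.0147). RPL21 had 484 and 468 CPM, against 747 and 781 in NT (log2 fold change -0.68 ± 0.12, edgeR adjusted p = 0.0199). RPL3, which lies close to the peptidyl transferase centre, had 839 and 734 CPM, against 1199 and 1198 in NT (-0.61 ± 0.13, adjusted p = 0.0310). All 3 lay well below NT in both libraries. RPL10, a late-joining protein near the transfer RNAs, fell by 0.55 ± 0.14 (adjusted p = 0.0491) and RPL10A, the protein of the L1 stalk, by 0.49 ± 0.12 (0.0412). RPL4, whose long loop lines the exit tunnel, just passed (-0.52 ± 0.13, adjusted p = 0.0497). RPL5 and RPL11, which carry the 5S RNA into the subunit and can bind MDM2 outside it, did not pass (-0.50 ± 0.13, adjusted p = 0.0510, and -0.23 ± 0.13, 0.276). Nor did RPL39 and RPL41, the shortest proteins of the ribosome (-0.29 ± 0.12, adjusted p = 0.155, and -0.35 ± 0.12, 0.101), or RPL22 (-0.22 ± 0.14, 0.334). None of the falls in this paragraph was called in edgeR without NT 1, NT 2, oeSRPK1 1 or oeSRPK1 2.

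In the small subunit RPS3A, RPS12 and RPSA fell most. RPS3A (ENSG00000145425.8, chromosome 4, 151099573 to 151104652, plus strand) had 573 and 601 CPM in shSRPK1, against 1012 and 984.5 in NT, a level 0.588 times NT (95% interval 0.481 to 0.719, edgeR adjusted p = 0.0148). RPS12 (ENSG00000112306.7, chromosome 6, 132814441 to 132817564, plus strand) had 274 and 259 CPM, against 448 and 444 in NT (0.598 times NT, 0.492 to 0.725, adjusted p = 0.0147). RPSA (ENSG00000168028.12, chromosome 3, 39406689 to 39412542, plus strand), also known as a precursor of the laminin receptor, had 416 and 359 CPM, against 660.1 and 638 in NT (0.597 times NT, 0.483 to 0.739, adjusted p = 0.0195). None of these 3 overlapped NT. RPS27A, made as a fusion with ubiquitin, fell by 0.63 ± 0.12 (adjusted p = 0.0245), RPS6, the substrate of the S6 kinases, by 0.62 ± 0.13 (0.0263), and RPS3, at the mRNA entry, by 0.55 ± 0.13 (0.0427). RPS19, a gene of Diamond-Blackfan anaemia, did not pass (-0.32 ± 0.14, 0.176). Neither did the genes ranked highest per kilobase with the lengths used, RPS18 (-0.39 ± 0.14, 0.108) and RPS27 (-0.44 ± 0.13, 0.0744). The falls named here were not called in edgeR without NT 1, NT 2, oeSRPK1 1 or oeSRPK1 2.

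In 12 of the 77 genes shSRPK1 overlapped NT. Their log2 fold changes ran from -0.27 to 0.46 and none passed. Described here are RPL28, RPS15, RPS10, RPS14, RPS9, RPL36A and RPL17, and the other 5 had log2 fold changes from -0.20 to -0.08. RPL28 had 327 and 271 CPM in shSRPK1, against 276 and 273 in NT (log2 fold change 0.12 ± 0.13, edgeR adjusted p = 0.589). RPS15, whose tail reaches the decoding centre, had 283 and 200 CPM, against 229 and 227 (0.08 ± 0.17, 0.793). RPS10 had 3.24 and 4.58 CPM, against 2.33 and 3.24 (0.46 ± 0.30, 0.344). For RPL28 and RPS15, shSRPK1 1 lay above both NT libraries and shSRPK1 2 below both, and for RPS10 shSRPK1 1 nearly equalled NT 2. RPS14, of the platform, had 695 and 547 CPM, against 606 and 684.5 (-0.06 ± 0.16, 0.848), and RPS9 188 and 170.2, against 245 and 129 (-0.06 ± 0.27, 0.906). RPL36A and RPL17 had few reads (-0.27 ± 0.34, 0.643, and -0.24 ± 0.21, 0.50). For RPL36A the shSRPK1 libraries held 9.72 and 20.7 CPM, against 15.4 and 20.9 in NT, and the sign turned to 0.18 without shSRPK1 1.

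In oeSRPK1 against NT most of the genes also had lower levels. In edgeR 10 of the 77 genes were lower and 0 higher. That is 13.0%, against 9.45% of the 14732 tested genes that were lower and 11.2% that were higher, so the share called lower was close to that of all genes. The direction was less evenly split than in other genes: 73 of 77 log2 fold changes were below 0 (50.0% in all tested genes), with a median of -0.27 (0.828 times NT; quartiles -0.35 and -0.15). In 63 genes (81.8%) both oeSRPK1 libraries lay below both NT libraries, against 34.6% of all tested genes, and in 4 (RPL10, RPL28, RPS10 and RPS15) both lay above, against 35.9% of all tested genes. The 10 comprised 4 of 46 large and 6 of 31 small subunit genes, with subunit medians of -0.28 and -0.25. At an unadjusted p under 0.05 there were 33 of the 77 genes, against 5256 of all 14732 tested genes. DESeq2 called 15 lower and limma-voom 13 (8.19% and 9.99% of all tested genes), and neither called any higher. The count was 0 without NT 1, NT 2, oeSRPK1 1 or oeSRPK1 2, and was 52 without shSRPK1 1 and 53 without shSRPK1 2 (21.7% and 21.2% of all genes). It was 48 when only the oeSRPK1 and NT libraries were fitted (22.6% of all genes). In the fits with a count of 0, a smaller share of all tested genes was called lower too. The median was -0.25 without oeSRPK1 1 and -0.32 without oeSRPK1 2, the library with most muscle transcripts and fewest reads.

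RPL4 fell most in oeSRPK1 (ENSG00000174444.13, chromosome 15, 66498015 to 66524532, minus strand). It had 765 and 820 CPM in oeSRPK1, 914 and 816 in shSRPK1, and 1273 and 1214 in NT. Both transfected groups lay below NT and overlapped each other. Its level in oeSRPK1 was 0.637 times NT (95% interval 0.514 to 0.790, edgeR adjusted p = 0.0146). RPLP0 (-0.57 ± 0.13, adjusted p = 0.0202), RPL7A (-0.53 ± 0.14, 0.0331) and RPL3 (-0.47 ± 0.13, 0.0423) were the other large subunit genes called. In the small subunit RPS3A (642 and 692 CPM in oeSRPK1, against 1012 and 984.5 in NT), RPS6 (585 and 643, against 902 and 922) and RPS25 (369 and 419, against 573 and 595) fell. RPS25 is needed for initiation at some viral internal entry sites. Their levels were 0.668, 0.672 and 0.674 times NT (edgeR adjusted p = 0.0172, 0.0182 and 0.0201). RPS4X (-0.45 ± 0.13, 0.0425) and RPS13 (-0.41 ± 0.12, 0.0499) also passed. None of these calls held without NT 1, NT 2, oeSRPK1 1 or oeSRPK1 2.

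Both comparisons share the NT libraries, so their values are set side by side without a measure of likeness. RPL7A and RPS25 had log2 fold changes of -0.53 and -0.57 in oeSRPK1, and -0.53 and -0.47 in shSRPK1 (adjusted p = 0.0542 and 0.0578). RPL9 had -0.35 in oeSRPK1 (adjusted p = 0.101) and -0.81 in shSRPK1, RPS12 -0.32 (0.0983) and -0.74, and RPSA -0.33 (0.113) and -0.74. RPL10 and RPL10A had 0.03 and -0.05 in oeSRPK1, and -0.55 and -0.49 in shSRPK1. The difference between the transfected groups was tested directly.

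**Figure D2:**
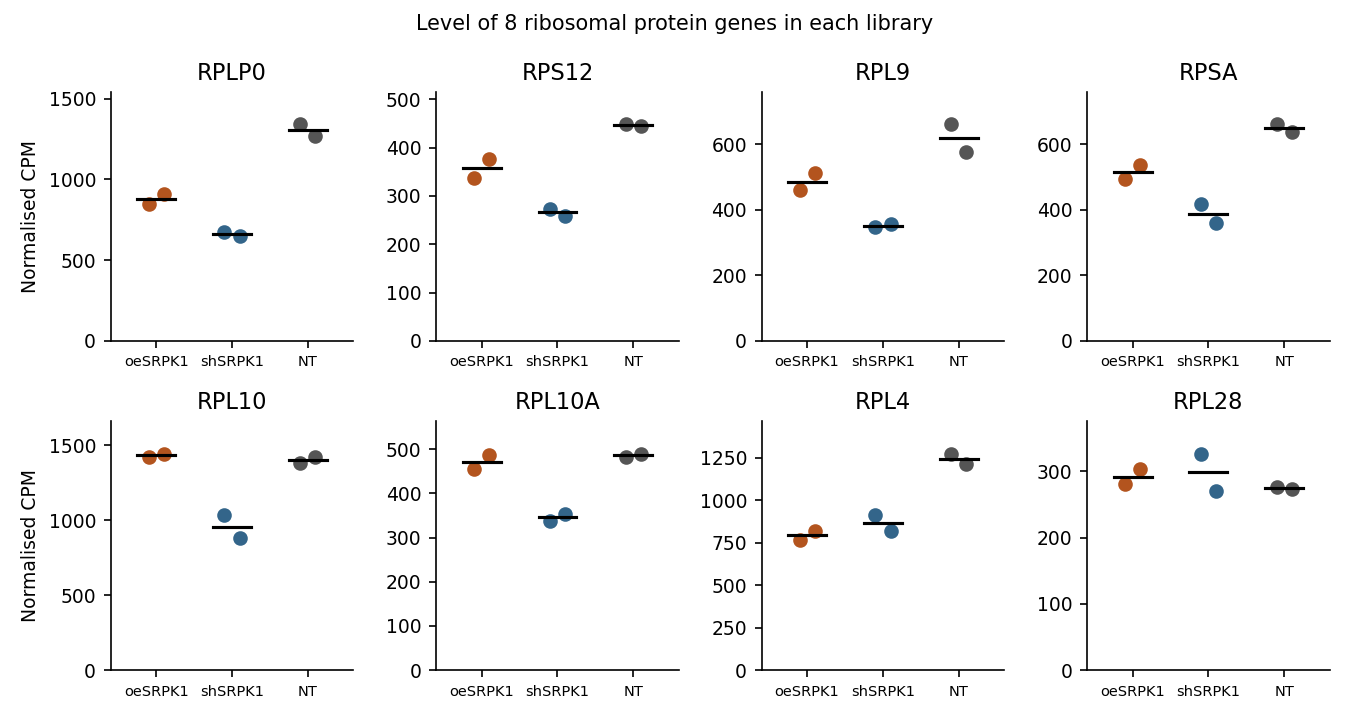
Normalised CPM of 8 genes in each library (points, library 1 on the left) and the group mean (bar), for oeSRPK1, shSRPK1 and NT, on axes that start at 0. RPLP0, RPS12, RPL9 and RPSA are in between in oeSRPK1, lowest in shSRPK1 and highest in NT, RPL10 and RPL10A are low in shSRPK1 alone among the 3 groups, RPL4 is low in both transfected groups, and RPL28 overlaps between oeSRPK1 and shSRPK1.

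In oeSRPK1 against shSRPK1, where both groups were transfected but with different vectors, 4 genes were higher and 0 lower in edgeR. That is 5.19% of the 77, against 11.5% of the 14732 tested genes that were higher and 11.3% that were lower, a share below that in all tested genes. The 4 were RPL10, RPL9, RPL10A and RPS12. The log2 fold change was above 0 for 63 of 77 (49.8% in all tested genes), with a median of 0.13 (1.10-fold). In 37 genes (48.1%) both oeSRPK1 libraries lay above both shSRPK1 libraries, against 31.8% of all tested genes, and in 3 (RPL18, RPLP2 and RPS15A) both lay below, against 30.5%. At an unadjusted p under 0.05 there were 10 of the 77 genes, against 5597 of all 14732 tested genes. DESeq2 called 6 (9.39% of all tested genes higher and 9.44% lower), and limma-voom 6 (12.3% and 11.6%). The count higher was 0 without NT 1, NT 2, oeSRPK1 1 or oeSRPK1 2, 16 without shSRPK1 1 and 5 without shSRPK1 2 (16.7% and 18.0% of all genes), and 0 when only the oeSRPK1 and shSRPK1 libraries were fitted. Without shSRPK1 1, RPL17 and RPL36A were called lower, and without shSRPK1 2, RPL18, RPL22 and RPS14 were. Where the count higher was 0, a smaller share of all tested genes was called higher too. The median was 0.03 without shSRPK1 2 and 0.18 without oeSRPK1 1.

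RPL10 had the largest difference (ENSG00000147403.15, chromosome X, 154389955 to 154409168, plus strand). It had 1422 and 1443 CPM in oeSRPK1, 1032 and 882 in shSRPK1, and 1380 and 1420 in NT. Both shSRPK1 libraries lay below all the others, and the oeSRPK1 libraries lay just above the NT libraries. The level in oeSRPK1 was 1.5 times that in shSRPK1 (95% interval 1.2 to 1.87, edgeR adjusted p = 0.0236). An antisense gene covers 46.7% of the exonic bases of RPL10, and the strand setting of the counting is not given in the sources used here. RPL10A had 455 and 487 CPM in oeSRPK1, 339 and 353 in shSRPK1, and 482.5 and 490 in NT (oeSRPK1 over shSRPK1 1.36-fold, 1.13 to 1.65, adjusted p = 0.0323). RPL9 was 1.38-fold higher in oeSRPK1 (1.12 to 1.71, adjusted p = 0.0401) and RPS12 1.34-fold (1.10 to 1.63, adjusted p = 0.0414). RPLP0 and RPSA just missed (0.42 ± 0.13, adjusted p = 0.0512, and 0.41 ± 0.13, 0.0593). For RPS6 and RPL7A the log2 difference was close to 0, with intervals of the ratio from 0.844 to 1.26 and from 0.797 to 1.25. The 4 calls were lost without NT 1, NT 2, oeSRPK1 1 or oeSRPK1 2 (edgeR adjusted p from 0.0755 to 0.219).

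Within the class, more abundant mRNAs had the larger falls. The 25 genes with most reads (mean 606 to 1435 CPM) had a median log2 fold change of -0.53 in shSRPK1 against NT, with 13 called lower. The 27 in the middle had -0.43 with 9 called, and the 25 with fewest reads (3.58 to 340 CPM) -0.22 with 2 called. Of all tested genes 3.75% were called lower, and the share at each of these levels was not counted. A fall can be easier to call with more reads, so the larger falls are read from the medians alone. The 25 with fewest reads include RPS10, RPL17, RPL36A and RPL26, whose levels are uncertain. For oeSRPK1 against NT the medians were -0.33, -0.28 and -0.15. Across the 77 genes the Spearman rho of log2 fold change with mean CPM was -0.39 for oeSRPK1 and -0.58 for shSRPK1, against 0.05 and -0.01 over all tested genes. With the length of the transcript chosen for each gene, which may not be the one expressed, it was -0.42 and -0.40. With its GC content it was 0.41 and 0.36, against -0.05 and 0.17 for GC over all tested genes with a known transcript. These are correlations across genes of the same 6 libraries, and the mean CPM includes the levels being compared. When the fit carried offsets for GC content and length, 21 genes were called lower in oeSRPK1 and 38 in shSRPK1. The shares of all tested genes were 11.7% and 4.17%, and the shSRPK1 median of the 77 genes was -0.47.

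**Figure D3:**
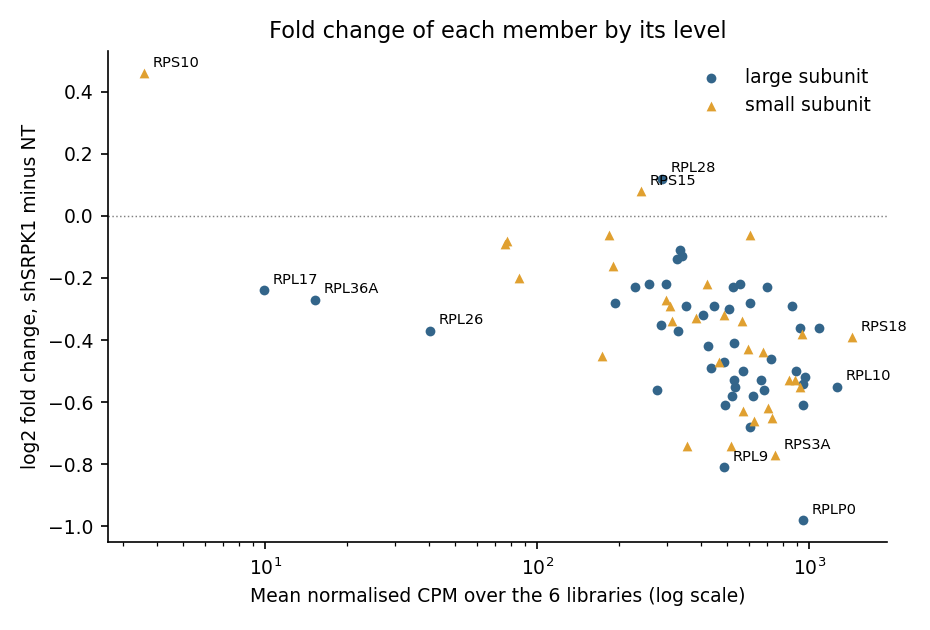
Log2 fold change, shSRPK1 minus NT, against mean normalised CPM over the 6 libraries (log axis) for the 46 large (circles) and 31 small (triangles) subunit genes. The falls are larger at higher levels, RPLP0 is lowest at -0.98, and RPS10, RPL17 and RPL36A, whose exons are shared with read-through genes, lie far to the left.

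Ribosomal proteins outside the naming rule behaved differently from one another. FAU, a fusion that carries RPS30, had 89.9 and 104 CPM in oeSRPK1, 106 and 87.3 in shSRPK1, and 92.0 and 102 in NT. The groups overlapped, with a log2 fold change of -0.01 ± 0.14 in both transfected groups against NT (edgeR adjusted p = 0.968 for oeSRPK1 and 0.970 for shSRPK1). RACK1, a scaffold on the small subunit, had 1288 and 1287 CPM in oeSRPK1, 931 and 945 in shSRPK1, and 1166 and 1203 in NT. Its level in oeSRPK1 exceeded that in shSRPK1 (0.46 ± 0.13, edgeR adjusted p = 0.0369) and passed in neither comparison with NT. Of 8 paralogs 6 had enough reads. RPL22L1, the close relative of RPL22, had 38.4 and 48.0 CPM in oeSRPK1, 23.1 and 28.7 in shSRPK1, and 52.3 and 49.2 in NT. It fell in shSRPK1 (-0.97 ± 0.16, adjusted p = 0.0147) and was higher in oeSRPK1 than in shSRPK1 (0.72 ± 0.16, 0.0190), while RPL22 itself passed in neither. RPL7L1 was likewise lower in shSRPK1 and higher in oeSRPK1 than in shSRPK1 (-0.52 ± 0.12, 0.0382, and 0.41 ± 0.12, 0.0459), and RPS27L was higher in oeSRPK1 than in NT (0.61 ± 0.17, 0.0370). RPL26L1, RPL36AL and RPL39L passed in no comparison. The RPL22L1 fall was not called without NT 1 (adjusted p = 0.196) or NT 2 (0.110) or when only shSRPK1 and NT were fitted (0.0539), and the other calls in this paragraph were lost without NT 1, NT 2, oeSRPK1 1 or oeSRPK1 2 (edgeR adjusted p from 0.0533 to 0.336). That of RPL7L1 between the transfected groups was also lost without shSRPK1 1 and in DESeq2 (0.0547). When only the groups compared were fitted, of these other calls that of RPS27L alone held.

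Other genes with TOP starts had a similar median. Of 20 non-ribosomal TOP genes 19 were tested (EEF1G was listed at 0 in all libraries). In oeSRPK1 7 were lower and 0 higher than NT, with a median of -0.32, and in shSRPK1 6 were lower and 0 higher, with a median of -0.33. The shares lower were 36.8% and 31.6%, against 9.45% and 3.75% of all tested genes. The counts lower were 0 without NT 1 and 1 without NT 2 in both comparisons. Without oeSRPK1 1 or oeSRPK1 2 fewer of these genes were called lower in both comparisons, as were fewer of all tested genes. Without either shSRPK1 library more were, as were more of all tested genes. With 1 library left out the medians of this list were -0.36 to -0.24 in oeSRPK1 and -0.40 to -0.32 in shSRPK1. EEF1A1, which brings aminoacyl-tRNA to the ribosome, had 4157 and 4076 CPM in oeSRPK1, 2913 and 3020 in shSRPK1, and 6469 and 6253 in NT. The 3 groups did not overlap, and its log2 fold changes against NT were -0.63 ± 0.14 in oeSRPK1 (edgeR adjusted p = 0.0194) and -1.10 ± 0.14 in shSRPK1 (0.00771). EEF1B2, its exchange factor, had -0.75 ± 0.13 and -1.21 ± 0.13 (0.00733 and 0.00396). Both were higher in oeSRPK1 than in shSRPK1, by 0.47 (adjusted p = 0.0465) and 0.46 (0.0386). Against NT, the shSRPK1 calls were lost without NT 1 (0.153 for EEF1A1 and 0.0857 for EEF1B2) and, for EEF1A1, without NT 2 (0.0953) and when only shSRPK1 and NT were fitted (0.0539). The other calls of this pair were lost without NT 1, NT 2, oeSRPK1 1 or oeSRPK1 2 (edgeR adjusted p from 0.0539 to 0.296), and those between the transfected groups also with only these groups fitted (0.122 for EEF1A1 and 0.0850 for EEF1B2). Their starts are shown in the same way as those above.
EEF1A1: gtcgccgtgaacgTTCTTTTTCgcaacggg
EEF1B2: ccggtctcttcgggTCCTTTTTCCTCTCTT
They lie at chr6:73521018-73521047 (minus strand) and chr2:206159880-206159909 (plus strand).

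Translation factors listed as lacking this start were called in both directions in oeSRPK1. Their starts were not examined here. Of 13 translation factors 1 was lower and 3 higher in oeSRPK1 than in NT, with a median of 0.03 (EIF5 0.56, EIF6 0.53 and EIF4G2 0.50). Those are 7.69% and 23.1%, against 9.45% and 11.2% of all tested genes. Only 1 was lower in shSRPK1 (7.69%, against 3.75%) and 0 higher, with a median of -0.25. There 11 of the 13 were below 0 (49.0% of all tested genes). Both libraries lay below both NT libraries in 53.8% of them (28.7% of all tested genes). EIF4E, which binds the mRNA cap, had log2 fold changes of -0.47 in oeSRPK1 (edgeR adjusted p = 0.0264) and -0.48 in shSRPK1 (0.0404). Of the 79 mitochondrial ribosomal protein genes, which have no TOP start as a class, 12 were lower and 1 higher in oeSRPK1, with a median of -0.10, and 4 were lower and 0 higher in shSRPK1, with a median of -0.02. The shares lower, 15.2% and 5.06%, compare with 9.45% and 3.75% of all tested genes, and with 13% and 31.2% of the 77 genes. Below 0 were 55 of the 79 in oeSRPK1 and 42 in shSRPK1. Both libraries lay below both NT libraries in 46.8% in oeSRPK1 (34.6% of all tested genes) and 35.4% in shSRPK1 (28.7%). Of 16 genes that regulate TOP mRNAs or the supply of ribosomes, 3 were lower in oeSRPK1, MTOR (-0.54), TSC2 (-0.52) and EIF4E, and EIF4E alone in shSRPK1. The shares are 18.8% and 6.25%, against 9.45% and 3.75% of all tested genes. Without NT 1, NT 2, oeSRPK1 1 or oeSRPK1 2 none of the genes named here was called in oeSRPK1 (edgeR adjusted p from 0.0718 to 0.296), nor was EIF4E in shSRPK1 (0.102 to 0.335, and 0.0985 with only shSRPK1 and NT fitted). In these fits 0 translation factors without a TOP start were called, and at most 2 mitochondrial ribosomal protein genes. Without shSRPK1 1 or shSRPK1 2, more mitochondrial ribosomal protein genes were lower in both comparisons, as were more of all tested genes. Their median was then -0.15 in oeSRPK1 both times, and -0.04 and -0.00 in shSRPK1. No test was made of any list as a whole, and the counts for all lists rest on the same 6 libraries.

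**Figure D4:**
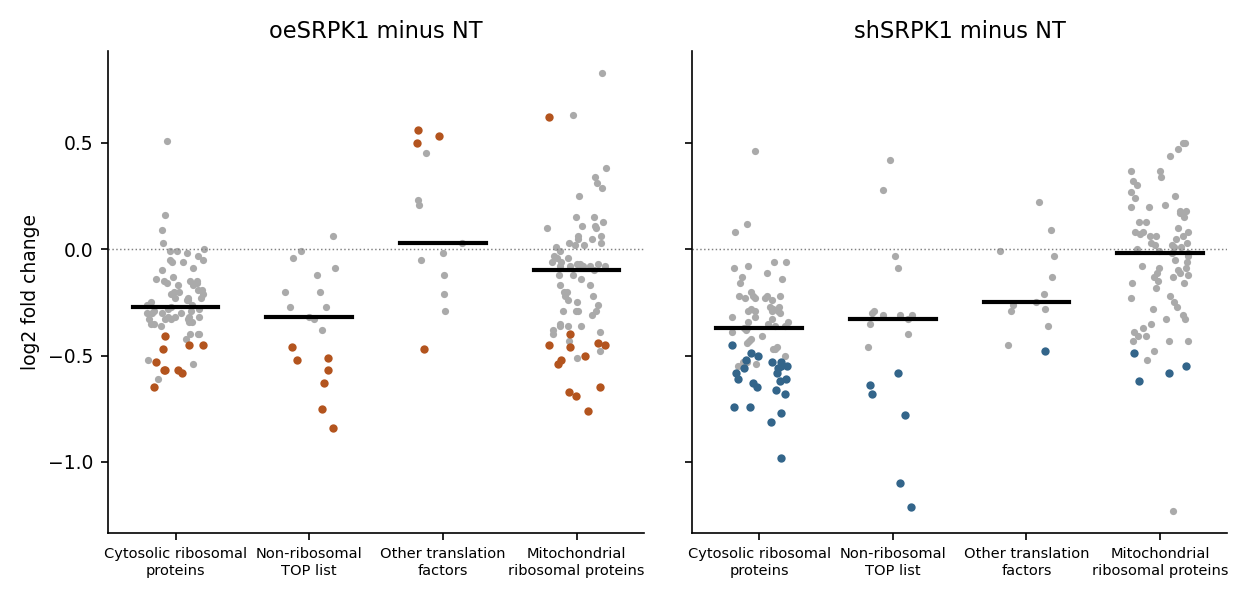
Log2 fold change against NT for the 77 cytosolic ribosomal protein genes, 19 non-ribosomal TOP genes, 13 other translation factors and 79 mitochondrial ribosomal protein genes, oeSRPK1 on the left and shSRPK1 on the right; coloured points have an edgeR adjusted p under 0.05 and bars are medians. The medians in that order are -0.27, -0.32, 0.03 and -0.10 in oeSRPK1, and -0.37, -0.33, -0.25 and -0.02 in shSRPK1.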

How the data were processed

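The authors deposited a table of raw counts for each library. The submitters' processing notes name FastQC, Trimmomatic, STAR 2.5.3 and hg38; counter, annotation and strand setting are not given in the sources used here. Per the labels' protocols, RNA had an integrity number over 8 and reads were paired, 101 bp. Entries that name no gene were left out; reads aligned to several places, which pseudogenes can cause, were 11.95% to 13.1% of each total, in no gene 8.13% to 11.1%, ambiguous 3.04% to 3.37%. Gene types, positions and lengths came from GENCODE 29 (GRCh38).

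In R 4.3.3, edgeR 4.0.16 (filterByExpr, minimum count 10, minimum total 15, TMM, robust quasi-likelihood) was fitted to all 6 libraries, which share 1 spread (biological coefficient of variation 14.5%), and p-values were Benjamini-Hochberg adjusted over 14732 genes. A count of 3 stood for 0.132 to 0.771 CPM. Intervals of fold changes are 95% intervals of the fit.

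Some genes that the rule for naming takes are not reported here. Genes were named for role, size of change or level per kb; members, lists and this rule were chosen with earlier results of these data known. Alternatives were other scalings, filters and tools (DESeq2 1.42.0, limma-voom of limma 3.58.1), only the groups compared, a replicate block, GC content and length offsets, and each library left out. Tested on simulated data, the fit recovered 7.69%, 71.6% and 92.3% of genes altered by factors of 1.5, 2 and 4 for shSRPK1 against NT (14469 genes), 16.9%, 56.1% and 90.8% for oeSRPK1 against NT (14447), and 14.9%, 71.6% and 92.4% for oeSRPK1 against shSRPK1 (14465).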

Additional observations from a re-analysis of the deposited data

How the results depend on the processing

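The count of ribosomal protein genes lower in shSRPK1 than in NT (24) was 40 with gene read totals alone, 38 in DESeq2, 38 with GC content and length offsets, 0 when only both groups were fitted (44 at an unadjusted p under 0.05) and 10 with the replicate block. It ran from 0 to 57 with 1 library left out, and the count higher (0) from 0 to 1. Of all tested genes, 7.24% were lower with read totals alone, 3.91% in DESeq2, 4.17% with offsets, 0.280% with only both groups and 2.59% with the block. The median of the ribosomal protein genes (-0.37) was -0.47 with read totals alone, with GC content and length offsets, and with these and the block. It was -0.44 to -0.35 with 1 library left out. The count lower in oeSRPK1 than in NT (10) was 17 with read totals alone, 25 with no filter, 48 with only both groups, 5 with the block, 21 with GC content and length offsets and 0 to 53 with 1 library left out. Of all tested genes, 12.1% were lower with read totals alone, 7.64% with no filter, 22.6% with only both groups, 7.96% with the block and 11.7% with offsets. The median of the ribosomal protein genes (-0.27) was -0.35 with read totals alone and -0.34 with no filter. Read totals alone moved the median of all tested genes to -0.09 for shSRPK1 and -0.08 for oeSRPK1. The count higher in oeSRPK1 than in shSRPK1 (4) was 2 with no filter, 0 with only both groups, 1 with the block, 1 with block and offsets and 0 to 16 with 1 library left out. The count lower (0) was 0 to 3, and the median (0.13) was 0.06 with no filter and 0.03 to 0.18. In this comparison 6.39% of all tested genes were higher with no filter, 5.27% with only both groups, 9.85% with the block and 8.96% with block and offsets. The cause of these shifts in counts and medians was not tested. With 1 library left out, the share of all tested genes called also fell where a count fell and rose where it rose. Upper-quartile scaling, DESeq2 size factors, TMM without these genes and the stricter filter moved no count by over 1.5 times. Where an arm was left with 1 library, that library was assumed to vary like the others. The replicate numbers do not pair the libraries: deviations of same-numbered libraries correlated at 0.0104 (NT with shSRPK1), -0.0186 (NT with oeSRPK1) and 0.0235 (shSRPK1 with oeSRPK1), so the block carries only a number. The sign of no called gene turned. Among uncalled named genes, RPL10 in oeSRPK1 against NT (0.03) was -0.01 with upper-quartile scaling, -0.04 with read totals alone and with no filter, -0.03 with offsets, with or without the block, and -0.01 to 0.05 with 1 library left out; RPS19 ran from -0.13 to 0.00, the last without oeSRPK1 1. FAU in oeSRPK1 against NT ran from -0.11 to 0.06 and in shSRPK1 from -0.15 to 0.12. RPL36A in shSRPK1 against NT ran from -0.91 without shSRPK1 2, where it was called, to 0.18 without shSRPK1 1. In oeSRPK1 against shSRPK1, leaving out 1 library gave -0.85 to 0.24 for RPL36A, -0.01 to 0.09 for RPL5, -0.18 to 0.11 for RPL7A, -0.23 to 0.26 for RPS10, -0.04 to 0.09 for RPS18 and -0.02 to 0.08 for RPS6. RPL7A was 0.02 with read totals, 0.01 in limma-voom and 0.00 with the block, and RPLP2 0.06 with offsets, with or without the block. With no filter RPS10 and RPS18 were -0.02 and RPS6 -0.03, and RPS6 was -0.04 with offsets, with or without the block. Of the alternatives for named genes, 514 of shSRPK1 against NT kept side and sign, 55 gained and 93 lost the call; the counts were 571, 81 and 75 for oeSRPK1 against NT, and 516, 14 and 81 for oeSRPK1 against shSRPK1. In simulation with 2 libraries a group, the fit found 7.69% to 16.9% of 1.5-fold changes. The altered genes were drawn at random from all tested genes, whatever their level. Smaller changes were not simulated, and no rate was obtained for the ribosomal protein genes alone. The least precise library was oeSRPK1 2, with 3891549 gene reads.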
